A study of Macaca mulatta with 20 samples.

Results

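ORAI1, RCAN3 and NFATC1 are genes of the calcium route by which lymphocytes turn antigen receptor signals into transcription. They were taken as all probes that the platform annotation gives to these symbols, which is 1 probe for each gene, so 3 genes of 5236 named genes and 3 probes of 7303 in the table. Expression was measured on Illumina arrays in sorted B cells, monocytes and T cells of the helper and the cytotoxic kind, all from the blood of 5 female rhesus macaques, each an adult. The animals lived in 5 social groups and held dominance ranks 1 (high) to 5 (low), with 1 animal per rank and 1 array per cell type of each animal. No treatment is named in the labels. Each rank is 1 animal from 1 group, so that an effect of rank cannot be told apart from one of the animal or its group. The 3 genes were picked from earlier results of these same arrays, among them the RCAN3 difference between helper and cytotoxic T cells. All their levels, cell type differences and rank slopes are counted as used in that choice, and are given as descriptions without a test.

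When an antigen receptor is engaged, inositol trisphosphate releases calcium from the endoplasmic reticulum, and STIM proteins sense the emptied store and open channels in the plasma membrane whose pore is formed by ORAI1. Calcium that enters binds calmodulin, which switches on the phosphatase calcineurin. Calcineurin removes phosphate from NFAT proteins such as NFATC1, which then enter the nucleus, while RCAN proteins such as RCAN3 bind calcineurin and can restrain it. Loss of ORAI1 function leaves human T cells without store-operated calcium entry and causes severe immunodeficiency.

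All values are log2 values as deposited, normalized by the authors to 1 distribution per array with a median of 8.39, and an SE is that of the fit. Differences between cell types and along rank were taken for each probe on its own, since human probes match macaque transcripts to differing degrees. The place of a probe among the probes of its array is given to mark a dim signal, not an amount of transcript. The cytotoxic T cell and B cell arrays of the rank 4 animal were left out of the fits. Over all probes they correlated with each other (r = 0.876) but at no more than 0.193 with the other 18 arrays, which correlated among themselves at 0.671 to 0.984. T cell markers averaged 8.15 in that cytotoxic array, against 11.12 to 11.86 in the other 4, and the B cell marker CD79B was at 8.36 in that B cell array, against 13.15 to 13.90. The 18 arrays carried the markers of their labels, with the mean of 7 T cell markers at 11.20 to 12.08 in helper T cells and the mean of 5 monocyte markers at 12.69 to 13.59 in monocytes. The T cell markers do not separate the helper from the cytotoxic kind. CD4, the 1 helper marker, was at 8.22 to 8.85 in helper arrays and 7.58 to 7.69 in cytotoxic arrays. It overlapped the helper arrays in monocytes, at 7.81 to 8.30. The 7-gene T cell mean was 8.26 to 8.86 in B cell arrays, against 7.80 to 7.84 in monocytes. Of the 7 genes CD3D, CD3G and CD6 lay above every monocyte array there and CD2 overlapped the monocytes, while CD3E, LAT and IL7R had B cell means of 7.76, 7.66 and 8.04, against 7.77, 7.71 and 8.03 in monocytes. The mean of 4 NK cell markers was 10.12 to 11.02 in cytotoxic arrays, against 8.31 to 9.64 in helper arrays. KLRD1, NKG7 and GNLY were higher in every cytotoxic than in every helper array, while NCAM1 had a mean of 7.75 in both. NCAM1 was high in monocytes instead, at 9.98 to 11.19, so its level in T cells is no guide to NK cells here. In RNA from sorted populations, fewer cells with a transcript and less transcript per cell cannot be told apart.

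ORAI1, the pore subunit of the store-operated calcium channel, was highest in the T cell populations and lowest in monocytes. In helper T cells it was at 9.48, 9.33, 9.13, 8.84 and 8.70 in the animals of ranks 1 to 5. In cytotoxic T cells it was at 9.61, 9.62, 9.44 and 8.61 in ranks 1, 2, 3 and 5. The rank 5 animal lay below the other 3 there, and also held the lowest helper value. In monocytes ORAI1 was at 8.47, 8.51, 8.61, 8.35 and 8.05 in ranks 1 to 5, and in B cells at 9.41, 9.19, 8.87 and 8.26 in ranks 1, 2, 3 and 5. Both T cell groups lay wholly above the monocytes, while the B cells overlapped all 3 other types. For cytotoxic T cells this held only narrowly, as their lowest array was at 8.613 and the highest monocyte array at 8.606.

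The means were 9.32 ± 0.48 (SD, n = 4) in cytotoxic T cells, 9.10 ± 0.33 (n = 5) in helper T cells, 8.93 ± 0.50 (n = 4) in B cells and 8.40 ± 0.21 (n = 5) in monocytes. Within animals the differences ran the same way in every animal in all contrasts but that of helper with cytotoxic T cells. Cytotoxic T cells exceeded monocytes by 0.89 ± 0.11 (SE) and B cells by 0.39 ± 0.11, each in 4 of 4 animals. Helper T cells exceeded monocytes by 0.70 ± 0.10 in 5 of 5 animals, and B cells by 0.20 ± 0.11 in 4 of 4. B cells were above monocytes in 4 of 4 animals (monocytes minus B cells, -0.50 ± 0.11). The T cell populations were neighbours in this order, at -0.19 ± 0.11 for helper minus cytotoxic T cells, with the helper array lower in 3 of 4 animals and higher in the rank 5 animal. With the rank 4 arrays included, in which ORAI1 was at 7.98 (cytotoxic) and 7.65 (B cell), that difference was 0.045 ± 0.20. The same inclusion gave 0.65 ± 0.20 for cytotoxic T cells minus monocytes and 0.42 ± 0.20 for helper T cells minus B cells. In the fitted differences the order of the T cell populations in ORAI1 therefore turned with those arrays, to a value within its SE of 0, whereas monocytes stayed below T cells. The rank 4 cytotoxic array itself, at 7.98 and with low T cell markers, lay below every monocyte array (lowest 8.05).

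RCAN3, a member of the calcineurin regulator family, was highest in helper T cells. In helper T cells it was at 8.88, 8.71, 9.79, 9.35 and 9.20 in ranks 1 to 5, with the rank 3 animal highest. In cytotoxic T cells it was at 8.12, 8.44, 8.26 and 8.50 in ranks 1, 2, 3 and 5. Every helper array lay above every array of the other populations, a separation that 0.753% of all probes showed. Monocytes spanned only 7.74 to 7.83, and B cells stood at 8.08, 8.11, 7.96 and 7.95 in ranks 1, 2, 3 and 5, so that none of the 4 groups overlapped another. The probe was dim in both, above 3.40% to 6.76% of the probes of its array in monocytes and 16.2% to 31.5% in B cells. Without detection p-values, low expression and a signal below the detection limit cannot be told apart there. The closest pair was cytotoxic T cells and B cells, whose nearest arrays were 8.12 and 8.11.

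Mean RCAN3 levels were 9.19 ± 0.42 (SD, n = 5) in helper and 8.33 ± 0.17 (n = 4) in cytotoxic T cells, 8.03 ± 0.079 (n = 4) in B cells and 7.81 ± 0.037 (n = 5) in monocytes. Helper T cells exceeded monocytes by 1.38 ± 0.15 (SE) in 5 of 5 animals, B cells by 1.14 ± 0.16 in 4 of 4 and cytotoxic T cells by 0.83 ± 0.16 in 4 of 4. The helper to cytotoxic gap varied between animals from 0.27 to 1.53. It ranged over 0.63 to 1.00 when any 1 animal was left out, and was 0.92 ± 0.16 with the rank 4 arrays, where RCAN3 was at 8.002 (cytotoxic) and 8.10 (B cell). Cytotoxic T cells exceeded monocytes by 0.54 ± 0.16 in 4 of 4 animals, and B cells by 0.30 ± 0.16 in 4 of 4. Monocytes lay below B cells in 4 of 4 animals, by -0.24 ± 0.16.

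CD3D, part of the CD3 signalling complex, measured 9.74, 9.41, 10.32 and 11.17 in B cells of ranks 1, 2, 3 and 5. The part of T cell transcripts in the RCAN3 level of these arrays was not tested. KLRD1, NKG7 and GNLY, but not NCAM1, differed between the same T cell populations as RCAN3, and their part in its difference was not tested. CD8A, a chain of the CD8 co-receptor, ranged from 8.31 to 11.29 in the helper arrays, against 13.84 to 14.36 in the cytotoxic arrays, while CD8B was at most 8.01 in the helper arrays.

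NFATC1, the transcription factor at the end of the route, was dim on its probe, and its values overlapped in all 4 cell types. In helper T cells it was at 7.86, 7.95, 8.07, 7.83 and 8.14 in ranks 1 to 5, and in monocytes at 7.94, 7.97, 8.14, 7.95 and 7.90. In cytotoxic T cells it was at 7.82, 8.01, 8.12 and 7.94, and in B cells at 7.96, 7.97, 8.18 and 8.19, in ranks 1, 2, 3 and 5. In the 18 arrays the probe stood above 6.30% to 38.2% of the probes of its array. The means were 8.08 ± 0.13 (SD, n = 4) in B cells, 7.98 ± 0.094 (n = 5) in monocytes, 7.97 ± 0.13 (n = 4) in cytotoxic and 7.97 ± 0.13 (n = 5) in helper T cells. The 6 differences between cell types ran from -0.10 ± 0.063 (SE, cytotoxic T cells minus B cells) to 0.018 ± 0.061 (helper minus cytotoxic T cells). Within animals NFATC1 was lower in helper T cells than in B cells in 4 of 4, by -0.11 to -0.023, with a fitted difference of -0.085 ± 0.061. In the 5 other contrasts the animals did not all run the same way. Detection p-values were not used here, so a transcript below the detection limit and a transcript at a like low level in all 4 populations cannot be told apart. How well this human probe matches the macaque transcript was not tested either.

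**Figure D1:**
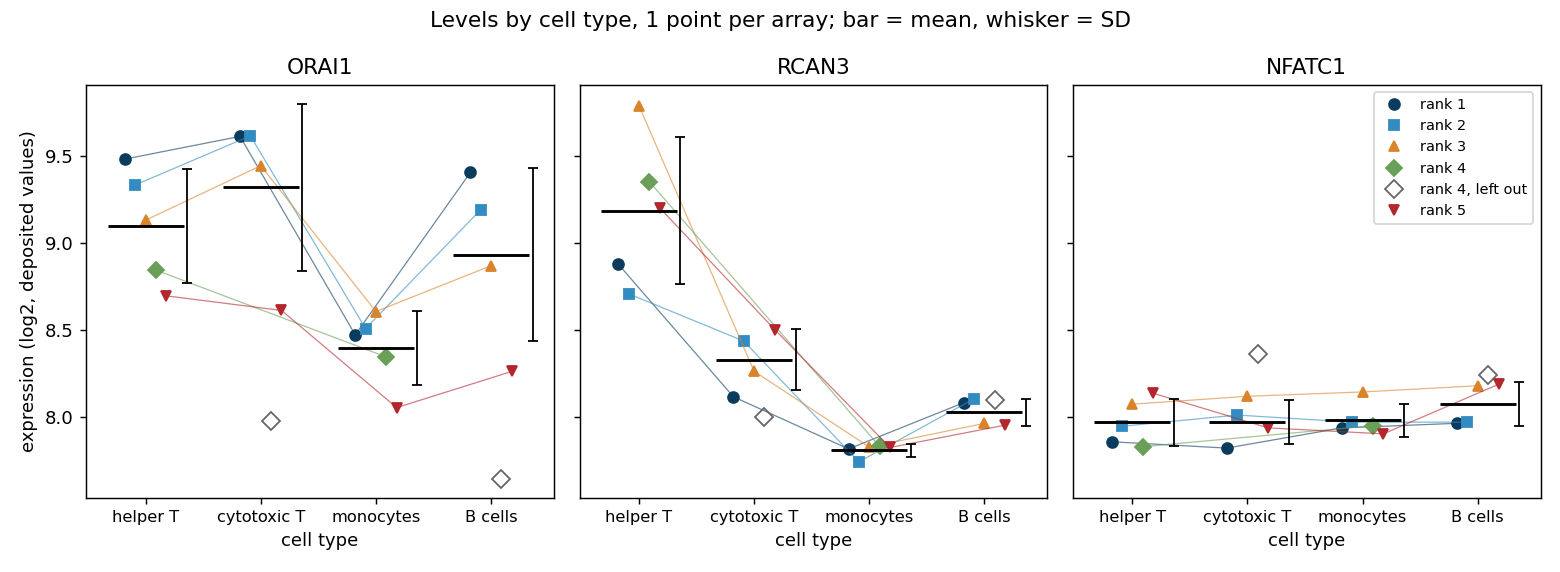
Expression (log2, vertical axis) of ORAI1, RCAN3 and NFATC1, each on its own probe, in the 4 cell types, with 1 point per array, thin lines joining the arrays of 1 animal, bars for means, whiskers for SD and open diamonds for the rank 4 arrays left out. ORAI1 is lowest in monocytes (mean 8.40), all 5 helper arrays of RCAN3 (8.71 to 9.79) lie above the other populations, and NFATC1 overlaps in all 4.

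Group overlap for the 3 genes can be set beside that of all probes. Helper T cells and monocytes did not overlap in 2 of the 3 genes (ORAI1 and RCAN3), as in 37.1% of all probes. Cytotoxic T cells and monocytes did not overlap in the same 2, as in 40.3%, but in ORAI1 only by 8.613 against 8.606. RCAN3 alone kept helper and cytotoxic T cells apart, as did 4.55% of all probes. RCAN3 was again the 1 gene of the 3 without overlap between helper T cells and B cells (16.9% of all probes), cytotoxic T cells and B cells (19.6%) and monocytes and B cells (33.3%). These contrasts were in view when the genes were chosen, so nothing is read from the shares.

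Along dominance rank the fitted ORAI1 slope was below 0 in each cell type, but the steps ran one way in helper T cells and B cells only. The ORAI1 slope per rank step was -0.21 ± 0.025 (SE) in the 5 helper arrays, -0.26 ± 0.055 in the 4 cytotoxic arrays, -0.10 ± 0.048 in the 5 monocyte arrays and -0.29 ± 0.029 in the 4 B cell arrays. In helper T cells ORAI1 was lower at each of the 4 steps down in rank (0.726% of all probes) and in B cells at each of 3 steps (5.75%). In cytotoxic T cells 2 of 3 steps went down and 1 up. In monocytes 2 of 4 went down and 2 up, with values higher at each step from rank 1 to rank 3 (8.47, 8.51 and 8.61). The rank 5 array held the lowest ORAI1 value in all 4 cell types, as 2.1% of all probes did, and the slope was below 0 in all 4, as for 21.7% of probes. Of the 7303 probes, 107 had a lower slope than ORAI1 in helper and 84 in cytotoxic T cells, 773 in monocytes and 84 in B cells. The cytotoxic and monocyte slopes rest on the rank 5 animal, without which they were -0.084 and -0.028, while the helper slope stayed between -0.22 and -0.20 and the B cell slope between -0.31 and -0.27 when any 1 animal was left out. The rank 4 arrays, when included, gave -0.38 ± 0.13 in B cells and -0.36 ± 0.15 in cytotoxic T cells.

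The animals also differed over the whole array in a way that runs partly with rank. The first component of the deviations from the cell type means held 46.9% of their variance and set the 8 arrays of ranks 3 and 5 (scores 0.19 to 0.29) apart from the 10 arrays of ranks 1, 2 and 4 (-0.30 to -0.099). No label gives a batch for this. Red blood cell transcripts differed along it, the mean of 3 globin genes in helper T cells being 13.31, 13.25, 11.40, 12.38 and 11.18 for ranks 1 to 5. The ORAI1 deviations had r = -0.64 with the component score over the 18 arrays, which share animals. Between ranks 3 and 5, which lie on the same side, ORAI1 differed by -0.43 in helper and -0.83 in cytotoxic T cells, -0.55 in monocytes and -0.61 in B cells. On the other side, rank 4 lay below rank 1 by -0.64 in helper T cells and by -0.13 in monocytes. Rank 2 differed from rank 1 by -0.15 (helper T cells), 0.0032 (cytotoxic), 0.036 (monocytes) and -0.21 (B cells). With a term for the 2 sets of animals, the ORAI1 slopes were -0.22 ± 0.031, -0.33 ± 0.10, -0.12 ± 0.060 and -0.29 ± 0.056 in the same order. With 4 arrays each, the cytotoxic and B cell slopes of that fit rest only on the differences of rank 2 from 1 and of rank 5 from 3. So few arrays set its SEs that they are a weak guide to precision in any cell type. The part of the globin transcripts in these slopes was not tested.

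RCAN3 and NFATC1 did not follow rank in a like way over the cell types. RCAN3 slopes were 0.13 ± 0.11 in helper and 0.076 ± 0.042 in cytotoxic T cells, 0.011 ± 0.028 in monocytes and -0.038 ± 0.030 in B cells. In helper T cells RCAN3 was lowest in ranks 1 and 2, and its slope was 0.039 ± 0.12 with the term for the 2 sets of animals. NFATC1 slopes lay between -0.0088 ± 0.037 in monocytes and 0.063 ± 0.033 in B cells, and with that term between -0.035 and 0.0046. The rank 3 animal held the highest NFATC1 value in cytotoxic T cells and monocytes, and ranks 3 and 5 the higher values in helper T cells and B cells. NFATC1 deviations had r = 0.66 with the component score.

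By limma, 0 of 7303 probes had a slope on rank at an adjusted p under 0.05 in any of the 4 cell types. At an unadjusted p under 0.05 there were 407 probes in helper (5.57%) and 918 in cytotoxic T cells (12.6%), 471 in monocytes (6.45%) and 720 in B cells (9.86%). The lowest adjusted p of any probe was 0.770 in helper and 0.340 in cytotoxic T cells, 0.647 in monocytes and 0.492 in B cells. Whether slopes differ between cell types was not tested.

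**Figure D2:**
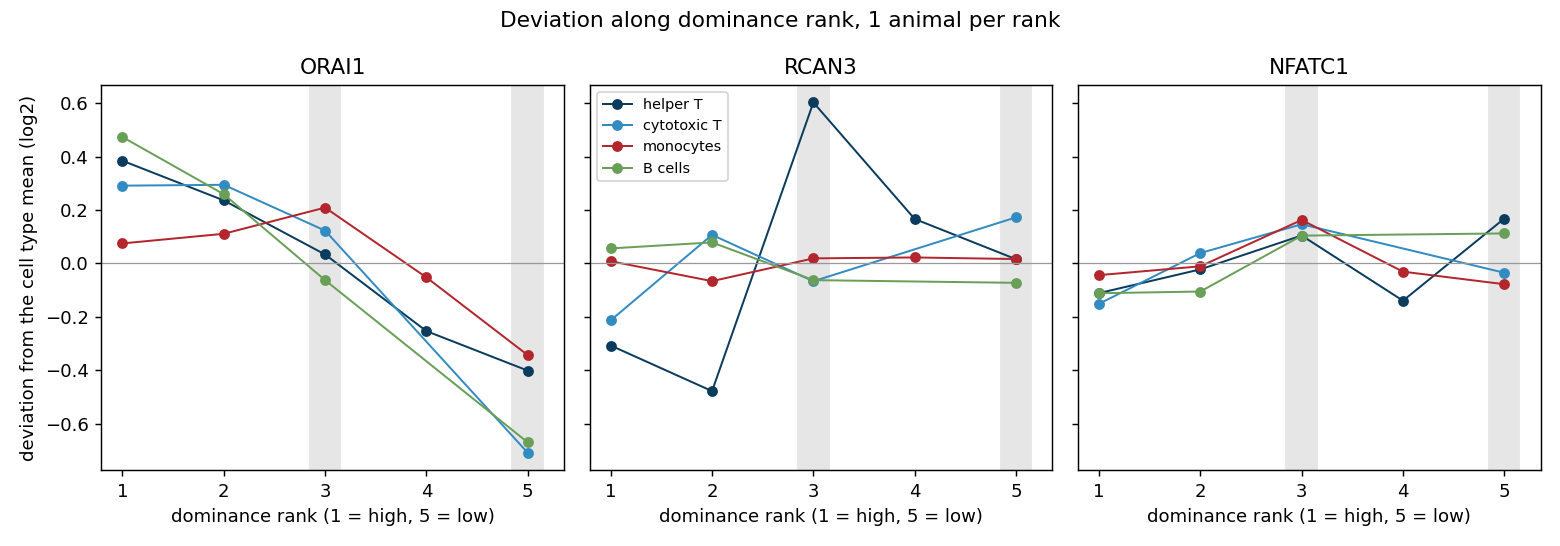
Deviation of each array from the mean of its cell type (log2, vertical axis) for ORAI1, RCAN3 and NFATC1 against dominance rank (horizontal axis, 1 high to 5 low), with 1 line per cell type and grey bands at ranks 3 and 5, whose arrays stand apart from the others over all probes. ORAI1 is lowest at rank 5 in all 4 cell types, RCAN3 peaks at rank 3 in helper T cells alone among the 4 lines, and NFATC1 stays within a narrow range.

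Over the 18 arrays ORAI1 and RCAN3 had r = 0.35, ORAI1 and NFATC1 r = -0.19, and RCAN3 and NFATC1 r = -0.078. Once cell type means were removed, ORAI1 and RCAN3 had r = -0.25. The arrays share animals and cell types, so these values are descriptions. The genes whose level over the 18 arrays was most like that of RCAN3 were HPCAL4 (r = 0.95), GALT (r = 0.94) and LINC01278 (r = 0.94). HPCAL4 had means of 9.14 in helper and 8.48 in cytotoxic T cells and of 8.03 in B cells, with monocytes lowest, the order of RCAN3. SERTAD3 was the most opposed to RCAN3 (r = -0.88). For ORAI1 the most alike were FBXO34 (r = 0.92), HSPH1 (r = 0.89) and HCFC2 (r = 0.89), and GALC the most opposed (r = -0.91). For NFATC1 they were ATP23 (r = 0.83), LARP4B (r = 0.80) and FIG4 (r = 0.79), and FAM241A the most opposed (r = -0.75). Likeness by Spearman rho kept 1 of the 3 genes for ORAI1 and for RCAN3.

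The rest of the route was followed in 67 other genes in 8 lists, of which 30 were on the table. Here limma was run over all 7303 probes with the animal as a block, and calls are at an adjusted p under 0.05. Each count is set beside the share of all probes called the same way, and shares near it say nothing particular about these genes. The lists were chosen with earlier results of these data known, so shares further from it are descriptions too. Each gene stands by its brightest probe, while the share over all probes takes in dim and unnamed ones. Between helper T cells and monocytes 14 of 30 genes were higher and 8 lower in helper T cells, against 34% and 27.5% of all probes, with a median difference of 0.11 (all probes -0.0036). Between cytotoxic T cells and monocytes 15 were higher and 6 lower (32.8% and 26.5%), with a median of 0.12 (all probes 0.0014). Against B cells 9 were higher and 5 lower in helper T cells (13.3% and 11.9%), and 11 higher and 4 lower in cytotoxic T cells (12.8% and 12.1%). Their medians were 0.11 and 0.045 (all probes -0.0028 and -0.0091). Monocytes against B cells gave 8 higher and 8 lower (22.8% and 30.8%) with a median of -0.0069 (all probes -0.0065). Between helper and cytotoxic T cells 1 of 30 was higher and 0 lower (1.2% and 1.44%), with a median of -0.025 (all probes 0.0033).

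The store sensors and the channel family differed by population. STIM1, the sensor that gates ORAI1, lay at 9.87 to 10.66 in helper T cells and 9.96 to 10.58 in cytotoxic T cells, against 8.79 to 9.64 in monocytes and 9.19 to 9.58 in B cells. No T cell array overlapped the other populations. STIM1 was higher in helper T cells than in monocytes by 1.04 ± 0.088 (SE, adjusted p = 3.02e-07) and than in B cells by 0.94 ± 0.096 (adjusted p = 8.77e-06). In cytotoxic T cells it was higher by 1.06 ± 0.096 and 0.96 ± 0.099. STIM2, a second store sensor, was instead highest in B cells, above helper T cells by 0.51 (difference -0.51 ± 0.11, adjusted p = 0.00286) and above monocytes (-0.90 ± 0.11, adjusted p = 9.78e-06). ORAI3, a relative of ORAI1, was higher in cytotoxic T cells than in monocytes by 0.18 ± 0.075 (adjusted p = 0.0475) and lower in monocytes than in B cells (-0.23 ± 0.075, adjusted p = 0.0196). The ORAI3 calls were lost without rank 2 or 5, and the first also without rank 4, with adjusted p up to 0.242 and 0.151, and both were lost without the animal as a block (0.300 and 0.240).

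Of 7 measured genes of store release and calcium pumping 4 were higher and 2 lower in helper T cells than in monocytes, where 34% and 27.5% of all probes were. Against B cells 2 were higher and 2 lower, where 13.3% and 11.9% of all probes were. ATP2B4, a plasma membrane calcium pump, was higher in helper T cells than in B cells by 2.51 ± 0.10 (adjusted p = 1.09e-09) and than in monocytes by 1.89 ± 0.093, on 3 of 3 probes. ITPR3, an inositol trisphosphate receptor, was higher in helper T cells than in monocytes by 0.68 ± 0.063 (adjusted p = 6.75e-07). ITPR1, a receptor of the same family, was lower in helper T cells than in B cells (-0.78 ± 0.075, adjusted p = 4.61e-06), and so was ATP2A3, a pump that refills the store (-0.75 ± 0.094, adjusted p = 4.99e-05, 2 of 2 probes). Against monocytes ITPR1 was among the higher, a call lost without rank 1, 2 or 4. The lower were the pumps ATP2A2, on 1 of 2 probes, and ATP2B1. The ATP2B1 call was lost without rank 1, 2 or 4 and without the animal as a block (adjusted p = 0.0722).

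Calcineurin and its regulators were thinly covered. PPP3CB, a catalytic subunit of calcineurin, was higher in helper T cells than in monocytes by 0.48 ± 0.079 (adjusted p = 0.000133), while PPP3R1, the regulatory subunit, was lower (-0.50 ± 0.097, adjusted p = 0.000563). Without the animal as a block both calls were lost (adjusted p = 0.175 and 0.138). RCAN1, the other RCAN gene on the table, ran the other way from RCAN3 between helper T cells and monocytes. It was lower in helper T cells by -0.36 ± 0.093 (adjusted p = 0.0043, and 0.0834 without the animal as a block), and between helper and cytotoxic T cells its difference was -0.15 ± 0.10 (adjusted p = 0.688).

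NFATC3, the other NFAT transcription factor on the table, was higher in both T cell populations than in monocytes and B cells. It was higher in helper T cells than in monocytes by 0.55 ± 0.067 (adjusted p = 8.81e-06) and than in B cells by 0.36 ± 0.073 (adjusted p = 0.00231), on 2 of 2 probes. In cytotoxic T cells the NFATC3 differences were 0.65 ± 0.073 and 0.45 ± 0.074. Between helper and cytotoxic T cells NFATC3 was not called (-0.098 ± 0.073, adjusted p = 0.725). It was lower in monocytes than in B cells (-0.19 ± 0.073, adjusted p = 0.0372), a call that was lost without rank 2, 3, 4 or 5 (adjusted p up to 0.142) and without the animal as a block (adjusted p = 0.121), and the arrays of these populations overlapped. NFATC2IP, a protein that binds NFATC2, was higher in helper T cells than in monocytes by 0.39 ± 0.077 (adjusted p = 0.000642).

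Of 7 measured NFAT kinases 2 were higher and 1 lower in helper T cells than in monocytes, no larger a share than the 34% and 27.5% of all probes. DYRK2, a kinase that phosphorylates NFAT, was higher by 2.21 ± 0.083 (adjusted p = 1.07e-10, 2 of 3 probes), MAPK8, also known as JNK1, by 0.54 ± 0.059 (adjusted p = 3.34e-06), and CSNK1A1, a casein kinase, was lower (-0.66 ± 0.10, adjusted p = 8.38e-05). Among 5 measured calmodulin-dependent kinases 2 were higher and 2 lower in the same contrast, beside the same shares of all probes, with CAMK4 at 0.64 ± 0.054 (adjusted p = 2.77e-07) and CAMK1 at -1.17 ± 0.089 (adjusted p = 1.10e-07). Of 13 listed NFAT target genes 3 were measured. CTLA4, an inhibitory receptor of T cells, was the 1 gene of the 30 called between helper and cytotoxic T cells, at 0.43 ± 0.064 higher in helper cells (adjusted p = 0.00216, up to 0.049 without 1 animal and 0.0634 with the rank 4 arrays). Its probe was dim, with means of 8.32 in helper and 7.90 in cytotoxic T cells, below the array median of 8.39. CTLA4 was therefore not tested when dim probes were left out. EGR3, a transcription factor of the early growth response family, was lower in helper T cells than in monocytes (-1.41 ± 0.13, adjusted p = 6.93e-07).

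Along rank 0 of the 30 genes were called by limma in any cell type, and an unadjusted p under 0.05 was found for 1 in helper T cells, 4 in the cytotoxic population, 3 in B cells and 1 in monocytes. Of all probes 5.57%, 12.6%, 9.86% and 6.45% reached it in the same order, so the counts are near the background.

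**Figure D3:**
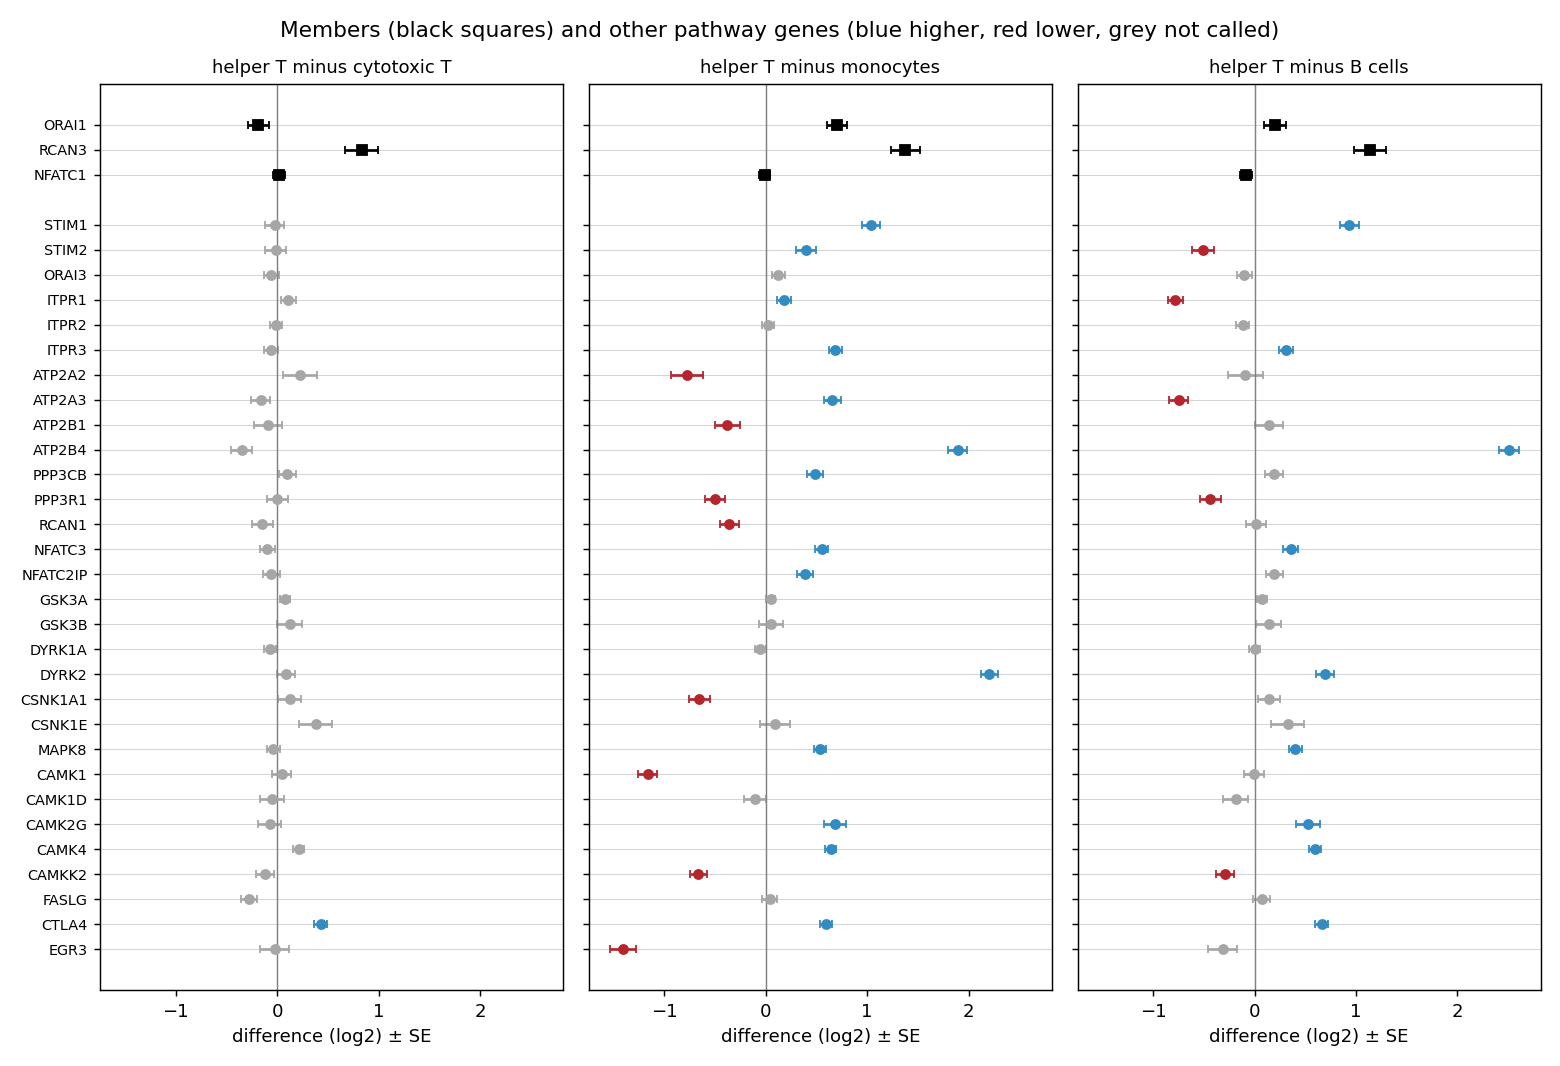
Difference between helper T cells and each other population (log2 ± SE, horizontal axis) for ORAI1, RCAN3 and NFATC1 (black squares, no test) and 30 other genes of the calcium and calcineurin route (circles, blue higher and red lower in helper T cells at an adjusted p under 0.05, grey not called). Most circles lie off 0 against monocytes, while against cytotoxic T cells CTLA4 is the 1 coloured circle and RCAN3 lies at 0.83.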

How the data were processed

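The authors deposited log2-scale values of 7303 probes on 20 arrays. Per the submitters' processing notes lumi was used; for its version, background correction and probe filter no source used here gives a statement. The table named as not normalized equals the series matrix value by value, and no source gives the logarithm's base, which was taken as 2; on a variance-stabilised scale differences of dim probes would be understated. The number of arrays limits precision.

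Gene names came from the platform annotation (6055 with 1 symbol, 1 with several, 1247 with none). The package limma 3.58.1 (R 4.3.3) was fitted to 18 arrays, cell type and animal being the terms, and separately to each cell type for a slope on rank. P-values were two-sided and adjusted by Benjamini-Hochberg over all probes. Animal codes in the sample titles tie the 4 arrays of each rank together, and deviations from cell type means correlated at 0.24 to 0.81 in 25 of 25 same-animal pairs (median 0.48, against -0.25 for other animals and types). Where a gene had more than 1 probe, the brightest was used.

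The members and gene lists were chosen with earlier results of these data known. Pathway genes named are those called with the largest differences, at most 4 per list and comparison, and others only with values; genes alike are the 3 with the highest and the 1 with the lowest r. The fits were run on simulated data with changes of known size, as a check of the code. The simulated slopes held no animal effect, so they say nothing about rank slopes where each rank is 1 animal. Alternatives were the 20 arrays, no block, the 2 types compared alone, no dim probes, another variance model and leaving out each animal. The term for ranks 3 and 5 was added after seeing the data. Sequences were not used here.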

Additional observations from a re-analysis of the deposited data

Results flagged for a closer look

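Of 12 groups of member values, 3 held an array far from the rest of its group by Dixon's criterion. The groups share animals, and their values were used in the choice of the genes, so this is a description and not a test. ORAI1 was at 8.61 in the cytotoxic T cell array of rank 5, against 9.44 to 9.62 in the other 3. RCAN3 was at 7.74 in the monocyte array of rank 2, against 7.82 to 7.83. NFATC1 was at 8.14 in the monocyte array of rank 3, against 7.90 to 7.97.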

How the results depend on the processing

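With all 20 arrays, ORAI1 was at 0.045 for helper minus cytotoxic T cells, 0.42 for helper T cells minus B cells, 0.65 for cytotoxic T cells minus monocytes and -0.28 for monocytes minus B cells, with slopes of -0.36 (cytotoxic T cells) and -0.38 (B cells). The RCAN3 slope in cytotoxic T cells was then 0.034, and NFATC1 was at -0.081 for helper minus cytotoxic T cells and 0.069 for cytotoxic T cells minus monocytes. Calls over all probes were 22 (helper against cytotoxic T cells), 2591 (helper T cells against monocytes), 671 (helper T cells against B cells), 2361 (cytotoxic T cells against monocytes), 462 (cytotoxic T cells against B cells) and 2086 (monocytes against B cells). Pathway genes called were then 0 higher in helper than in cytotoxic T cells, 9 higher and 4 lower in helper T cells than in monocytes, 2 lower than in B cells, 3 lower in cytotoxic T cells than in monocytes, 5 higher and 2 lower than in B cells, and 3 higher and 5 lower in monocytes than in B cells. Of 89 called pairs of a gene and a contrast 49 kept their call, and 4 turned: ATP2A2 to 0.14 (cytotoxic T cells minus monocytes) and -0.15 (monocytes minus B cells), PPP3R1 to 0.060 (cytotoxic T cells minus monocytes) and CAMK2G to -0.42 (helper T cells minus B cells). The most alike genes shared 1, 1 and 0 with the 3 of ORAI1, RCAN3 and NFATC1, and by Spearman rho 1 for ORAI1 and RCAN3.

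Without the replicate block, calls over all probes were 125 between helper and cytotoxic T cells, 1159 between helper T cells and B cells and 1107 between cytotoxic T cells and B cells. Pathway genes lower were 5 (helper T cells, against monocytes), 3 (helper T cells, against B cells) and 5 (monocytes, against B cells), and 71 of the 89 pairs kept their call. Of the member differences, NFATC1 for helper minus cytotoxic T cells went from 0.018 to -0.0034, and the others kept their sign. The 2 types alone, with the replicate block, gave 466 calls between helper and cytotoxic T cells, and 5 pathway genes higher and 5 lower in monocytes than in B cells. Without dim probes 4831 probes stayed, among them 2 of the 3 members and 23 of the 30 pathway genes, and 0 pathway genes were higher in helper than in cytotoxic T cells, because CTLA4 was not among those tested.

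Leaving out 1 animal gave 72 to 169 calls between helper and cytotoxic T cells and 5 to 8 pathway genes lower in monocytes than in B cells. It gave ORAI1 slopes of -0.35 to -0.084 in cytotoxic T cells and -0.16 to -0.028 in monocytes, RCAN3 slopes of 0.079 to 0.25 in helper T cells, and NFATC1 slopes of 0.0041 to 0.070 in helper T cells, -0.034 to 0.15 (cytotoxic T cells) and 0.056 to 0.11 (B cells). The call was lost at least once in 13 of the 89 pairs, and 0 turned. The term for ranks 3 and 5 gave slopes of -0.33 (ORAI1, cytotoxic T cells), 0.16 and 0.00045 (RCAN3, cytotoxic T cells and B cells), and -0.0020, -0.035 and 0.0046 (NFATC1, helper T cells, cytotoxic T cells and B cells). The causes were not tested. A mean over the probes of a gene was not run for the members, which have 1 probe each.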
